A study of Mus musculus with 12 samples.

Results

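The kidneys of mice that carried Cre were compared with those of mice that did not, over sham-operated and uninephrectomised animals together, with the surgery as a term of the model. All 12 libraries of the series entered the comparison. The 6 CrePlus libraries were set against the 6 CreMinus libraries, and 14970 of the 24062 genes in the deposited count table had enough counts to be tested. All mice belonged to a Pkd1 model and were induced with tamoxifen as adults of 6 to 8 weeks, CreMinus mice included, and whole-kidney RNA was taken 4 weeks after surgery. UNx CrePlus and UNx CreMinus mice lost 1 kidney by unilateral nephrectomy (UNx), whereas sham CrePlus and sham CreMinus mice kept both. Each of the 4 groups had 3 libraries, with 1 library per labelled sample. The labels name neither the promoter that drives Cre, nor the form of Cre, nor the part of Pkd1 that it removes, and they do not say in which cells Cre was active.

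Pkd1 encodes polycystin-1, a large membrane protein of the primary cilium and of cell junctions, which forms a complex with the cation channel polycystin-2, the product of Pkd2. Loss of either polycystin in tubule cells leads to cysts, together with proliferation of the epithelium, injury, inflammation and fibrosis around the cysts. After loss of the opposite kidney the remaining kidney grows, and in mice this growth is known to hasten cyst formation when Pkd1 is lost in adult life. A change that is common to both surgeries is therefore one seen in kidneys with and without this growth stimulus.

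Every UNx CrePlus library was sequenced deeply, as was UNx CreMinus replicate 1. Total counts were 41699032 to 42785476 in these 4 and 18914300 to 22480895 in the other 8 libraries. The labels give no sex. Xist was at 492 to 1221 CPM (counts scaled to a library total of 1000000) in 7 libraries and at 0.143 to 1.26 CPM in the other 5, and 5 libraries had Y-linked counts of 157 to 176 CPM in sum, so 7 libraries are called female and 5 male here. The male ones were sham CrePlus replicate 3, UNx CrePlus replicates 1 and 2, sham CreMinus replicate 3 and UNx CreMinus replicate 1. The first principal component held 49.2% of the variance and separated male from female libraries. Markers of the proximal tubule, the main cell type of kidney cortex, were abundant in every library, with 26717 to 71770 CPM in sum in CrePlus and 32306 to 63420 CPM in CreMinus libraries. The labels do not say that replicates came from separate litters or days, and p-values measure only the spread between these samples.

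Pkd1 itself (chr17:24548689-24596514, GRCm38) was read first as a check of the labels. It was at 64.1, 46.1 and 45.9 CPM in the 3 sham CrePlus libraries, against 76.8, 60.3 and 57.8 CPM in the 3 sham CreMinus libraries. In UNx kidneys it was at 45.5, 39.6 and 45.1 CPM in CrePlus libraries, against 49.4, 49.3 and 71.6 CPM in CreMinus libraries. The CrePlus libraries were thus below the CreMinus ones in UNx kidneys, while sham CrePlus replicate 1 reached into the CreMinus range. The log2 fold change, here always CrePlus over CreMinus with surgery in the model, was -0.35 ± 0.12 (standard error, SE) and did not pass (adjusted p = 0.262). Counts over the whole gene include reads from any part that is kept, so this value does not measure how much of Pkd1 was deleted. Irf5, the macrophage transcription factor in the title of the series (chr6:29526130-29541869), was at 16.5, 17.4 and 22.7 CPM in sham CrePlus and 14.9, 27.6 and 11.3 CPM in UNx CrePlus libraries, against 12.9, 11.8 and 15.8 CPM in sham CreMinus and 15.4, 11.2 and 13.2 CPM in UNx CreMinus libraries. The arms overlapped, and the log2 fold change of 0.46 ± 0.19 did not pass (adjusted p = 0.361). Without UNx CrePlus replicate 2, the highest library, the Irf5 value was 0.26.

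With edgeR's quasi-likelihood test and Benjamini-Hochberg adjustment over all 14970 genes, 85 genes had an adjusted p under 0.05, which is 0.568% of those tested. Of these, 66 were higher (0.441%) and 19 lower (0.127%) in CrePlus kidneys, and 1895 genes had an unadjusted p under 0.05 (12.7%). Over all tested genes the median log2 fold change was -0.0026. The scaling between libraries (TMM) sets this median close to no change, so it cannot show whether there was a general shift. The called changes were mostly small. Their median size was 0.68 on the log2 scale, with medians of 0.61 for the higher and -0.87 for the lower genes, and 12 higher and 9 lower genes exceeded a size of 1. The 6 CrePlus libraries did not overlap with the 6 CreMinus libraries in 75 of the 85 genes, of which 60 lay above and 15 below. Over all tested genes the arms did not overlap in 1.28%.

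The called changes had the same sign in sham and in UNx kidneys for all 85 genes when each surgery was given its own Cre effect, and in 82 of the 85 the libraries of the Cre arms did not overlap within either surgery. Over all tested genes the arms were apart in this way, in the same direction in both surgeries, in 2.3%. The called genes were selected on the sum of both surgeries, so that count is a description. The difference of the Cre effect between the surgeries was tested for every gene, and 0 genes passed with edgeR, 0 with DESeq2 and 0 with limma voom, against 277 genes at an unadjusted p under 0.05 (1.85%). The effect was larger in UNx than in sham kidneys for 64 of the 85 called genes and for 59.9% of all tested genes. Its median size over the called genes was 0.74 in UNx and 0.57 in sham kidneys. Of the called genes 7 had an unadjusted p under 0.05 for the difference, and the lowest of these p-values was that of Uroc1, with 0.00655. A difference that does not pass is no evidence that the effects were equal, and the 3 UNx CrePlus libraries were also all deep.

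**Figure D1:**
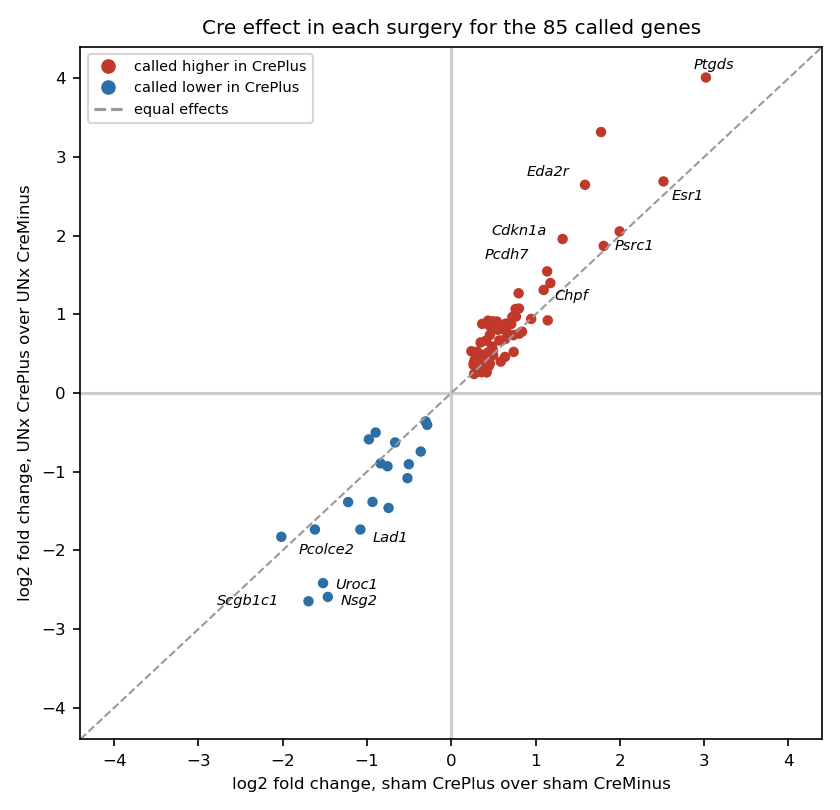
Each point is a called gene, with the log2 fold change of CrePlus over CreMinus in sham kidneys on the x axis and in UNx kidneys on the y axis. All 85 genes lie in the quadrants where both surgeries have the same sign, and 64 of them have the larger size of change in UNx kidneys, among them Ptgds, Eda2r and Uroc1.

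Among polycystins and genes of inherited cystic kidney disease, 2 of 25 tested members passed with edgeR, Pkd2 and Glis2, and both were higher in CrePlus kidneys. The share of all tested genes that passed was 0.568%, with 0.441% higher. Pkd2 (chr5:104453982-104505819), the channel partner of the targeted gene product, was at 416, 492 and 481 CPM in sham CrePlus and 457, 401 and 487 CPM in UNx CrePlus libraries. In sham CreMinus it was at 260, 330 and 294 CPM and in UNx CreMinus libraries at 272, 264 and 240 CPM. The arms did not overlap in either surgery, and the log2 fold change was 0.72 ± 0.08 (adjusted p = 0.00258). Glis2 (chr16:4594320-4625141), a zinc-finger transcription factor whose loss causes a form of nephronophthisis, was at 310, 323 and 355 CPM in sham CrePlus and 345, 304 and 319 CPM in UNx CrePlus libraries, against 184, 226 and 194 CPM in sham CreMinus and 173, 189 and 165 CPM in UNx CreMinus libraries. Its log2 fold change was 0.80 ± 0.08 (adjusted p = 0.000646), with 0.71 in sham and 0.88 in UNx kidneys. The reference annotation places Pam16 across 8481 bases of Glis2, and the library kit does not mark strand. Pam16 had a log2 fold change of -0.08 and did not pass (adjusted p = 0.649). The median over the 25 members was 0.02, and 15 were higher and 10 lower, so the list as a whole lay close to the median of all genes. Pkhd1, the gene of recessive polycystic kidney disease, had a value of 0.22 (adjusted p = 0.22) and was called by DESeq2, which thus called 3 members, but not by limma voom, which called 2. Among all 14970 tested genes DESeq2 called 445 and limma voom 128. Umod, which encodes uromodulin of the thick ascending limb, had a value of -0.07 (adjusted p = 0.866).

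Targets of p53 formed the largest group of called genes on any list. The transcription factor p53 is stabilised by DNA damage and other stress and raises genes that halt the cell cycle, repair DNA or start apoptosis. Of 29 tested targets 6 passed, all higher in CrePlus kidneys, and 25 of the 29 had values above 0. Over all tested genes 0.441% were called higher and 49.2% had values above 0. The list was drawn up with earlier results of these data known. Its median was 0.16, and DESeq2 and limma voom called 9 and 7 of its members, all higher. Over all 14970 tested genes DESeq2 called 445 and limma voom 128, beside 85 with edgeR. The members' summed level was 1199.7 to 1467 CPM in the 6 CrePlus libraries and 1031 to 1195 CPM in the 6 CreMinus libraries. Of these sums the called member Ccng1 alone gave 275 to 367 CPM in CrePlus and 178 to 266 CPM in CreMinus libraries. The separate sums therefore do not show a shift of the whole list.

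Cdkn1a encodes p21, the inhibitor of cyclin-dependent kinases that carries much of the p53 arrest. It was at 25.2, 25.8 and 19.6 CPM in sham CrePlus and 49.1, 46.8 and 37.3 CPM in UNx CrePlus libraries. In sham CreMinus it was at 10.999, 8.60 and 8.65 CPM and in UNx CreMinus libraries at 8.23, 15.4 and 10.7 CPM. All 6 CrePlus libraries of Cdkn1a lay above the CreMinus ones, and the UNx CrePlus libraries were the highest. The log2 fold change was 1.65 ± 0.18 (adjusted p = 0.00137), with 1.32 in sham and 1.96 in UNx kidneys (unadjusted p = 0.0603 for the difference in edgeR's fit). Zmat3 (chr3:32334792-32365665), an RNA-binding zinc-finger protein that acts below p53, was at 43.4, 43.0 and 47.4 CPM in sham CrePlus and 55.0, 53.6 and 50.4 CPM in UNx CrePlus libraries, against 23.8, 25.2 and 29.5 CPM in sham CreMinus and 26.4, 28.9 and 25.7 CPM in UNx CreMinus libraries. Its log2 fold change of 0.87 ± 0.07 had an adjusted p of 0.000232. The spread within each group of Zmat3 was small beside the gap between the arms.

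Eda2r, a receptor of the tumour necrosis factor family, was the called target with the largest change. It was at 3.52, 3.87 and 3.21 CPM in sham CrePlus and 7.44, 4.68 and 6.23 CPM in UNx CrePlus libraries, against 1.18, 1.03 and 1.31 CPM in sham CreMinus and 0.540, 1.24 and 1.22 CPM in UNx CreMinus libraries, with a log2 fold change of 2.13 ± 0.26 (adjusted p = 0.00353). Psrc1, which encodes a microtubule protein, was low, with 1.78 to 4.36 CPM in CrePlus and 0.374 to 1.47 CPM in CreMinus libraries, and rose by 1.84 ± 0.24 on the log2 scale (adjusted p = 0.00574). Ccng1, which encodes cyclin G1, was the most abundant of the called targets, with 275, 280 and 321 CPM in sham CrePlus and 363, 353 and 367 CPM in UNx CrePlus libraries, against 178, 196 and 216 CPM in sham CreMinus and 228, 266 and 188 CPM in UNx CreMinus libraries. It rose by 0.62 ± 0.09 (adjusted p = 0.00828). Plk2, a polo-like kinase, rose by 0.63 ± 0.11 (adjusted p = 0.036), with values of 0.37 in sham and 0.88 in UNx kidneys. Plk2 passed in 3 of the 12 fits that left out a library each, where its adjusted p reached 0.108, whereas Cdkn1a, Zmat3, Eda2r, Psrc1 and Ccng1 passed in all 12.

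The other p53 targets did not pass and spanned -0.14 to 1.17. Phlda3 had a log2 fold change of 0.93 (adjusted p = 0.0528), with 7.04 to 10.999 CPM in CrePlus and 2.88 to 6.28 CPM in CreMinus libraries. Those 2 ranges did not overlap. Gdf15 had 0.89 (adjusted p = 0.0649) and Gtse1 1.17 (adjusted p = 0.074). Mdm2, the ubiquitin ligase that degrades p53, had 0.15 (adjusted p = 0.218), and the apoptosis genes Bax, Bbc3 and Fas had 0.06, 0.13 and 0.03. With a term for sex in the model 12 of the 29 targets passed, all higher, and the added members were Phlda3, Gdf15, Gtse1, Aen, Ephx1 and Trp53inp1. The share of all tested genes called in that model was 2.01%, with 1.38% called higher.

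The promoters of the listed targets with a RefSeq window were searched for the binding decamer of p53, on both strands, in the 250 bases before each RefSeq start (GRCm38.p6). This covered 5 of the 6 called targets and not Zmat3. The decamer occurred in 7.13% of all 32851 such windows and in at least 1 window of 8.2% of the 27025 genes with one, and a pair of decamers within 13 bases of each other in 21 windows (0.0639%). A window was at hand for 23 of the 29 tested targets, and 8 of these genes held a decamer in at least 1 window. The stretches of the 2 called targets that held one, Cdkn1a and Ccng1, are shown because these genes rose together, with the decamers in capitals and each read 5′ to 3′ on the strand of its gene.
Cdkn1a, chr17:29090866-29090977, plus strand: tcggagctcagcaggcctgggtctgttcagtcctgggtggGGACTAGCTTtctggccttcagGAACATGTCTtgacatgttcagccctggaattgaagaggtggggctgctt
Ccng1, chr11:40755422-40755511, minus strand: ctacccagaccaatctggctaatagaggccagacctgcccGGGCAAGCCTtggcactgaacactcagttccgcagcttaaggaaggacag
The Cdkn1a decamers begin 73 and 51 bases before the upstream RefSeq start of the gene and are 12 bases apart. The window before its downstream start (chr17:29093519-29093768) held 0 decamers. No other pair was found in the windows of the 23 targets. The Ccng1 decamer begins 185 bases before the start. Eda2r, Plk2 and Psrc1 had no decamer in these windows, and letters alone do not show binding.

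Ptgds (chr2:25466709-25470110) had the largest change of all called genes. It encodes lipocalin-type prostaglandin D synthase, which makes prostaglandin D from the common precursor. It was at 34.5, 23.8 and 26.7 CPM in sham CrePlus and 35.3, 41.2 and 78.1 CPM in UNx CrePlus libraries, against 2.49, 5.07 and 2.90 CPM in sham CreMinus and 2.47, 4.05 and 3.14 CPM in UNx CreMinus libraries. The lowest CrePlus library was thus several times above the highest CreMinus library. The log2 fold change was 3.52 ± 0.29 (adjusted p = 0.000274), with 3.02 in sham and 4.01 in UNx kidneys. The other 18 tested members of the list of prostaglandin enzymes and receptors did not pass. Among them were the cyclooxygenase Ptgs1 with -0.30 (adjusted p = 0.44), the haematopoietic synthase of the same product, Hpgds, with 0.37 (adjusted p = 0.639), and the receptor Ptgdr2 with -0.09 (adjusted p = 0.921). The list's median was -0.05, with 8 of 19 members higher.

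Esr1 (chr10:4611989-5005633), which encodes estrogen receptor alpha, had the next largest change among named genes that rose. It was at 31.1, 30.03 and 26.8 CPM in sham CrePlus and 42.0, 55.6 and 23.7 CPM in UNx CrePlus libraries, against 2.99, 4.09 and 8.28 CPM in sham CreMinus and 10.1, 4.28 and 4.15 CPM in UNx CreMinus libraries. The highest CreMinus values of Esr1 were those of the 2 male CreMinus libraries. Its log2 fold change was 2.61 ± 0.31 (adjusted p = 0.00271), and was 2.86 in female and 2.04 in male libraries. Tamoxifen-inducible forms of Cre are fused to the hormone-binding part of an estrogen receptor, and counts per gene do not separate reads of such a construct from those of Esr1 itself. Which of them gave the difference was not tested. None of the other 9 steroid and related nuclear receptors passed. Pgr, the progesterone receptor, had -0.39 (adjusted p = 0.515).

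**Figure D2:**
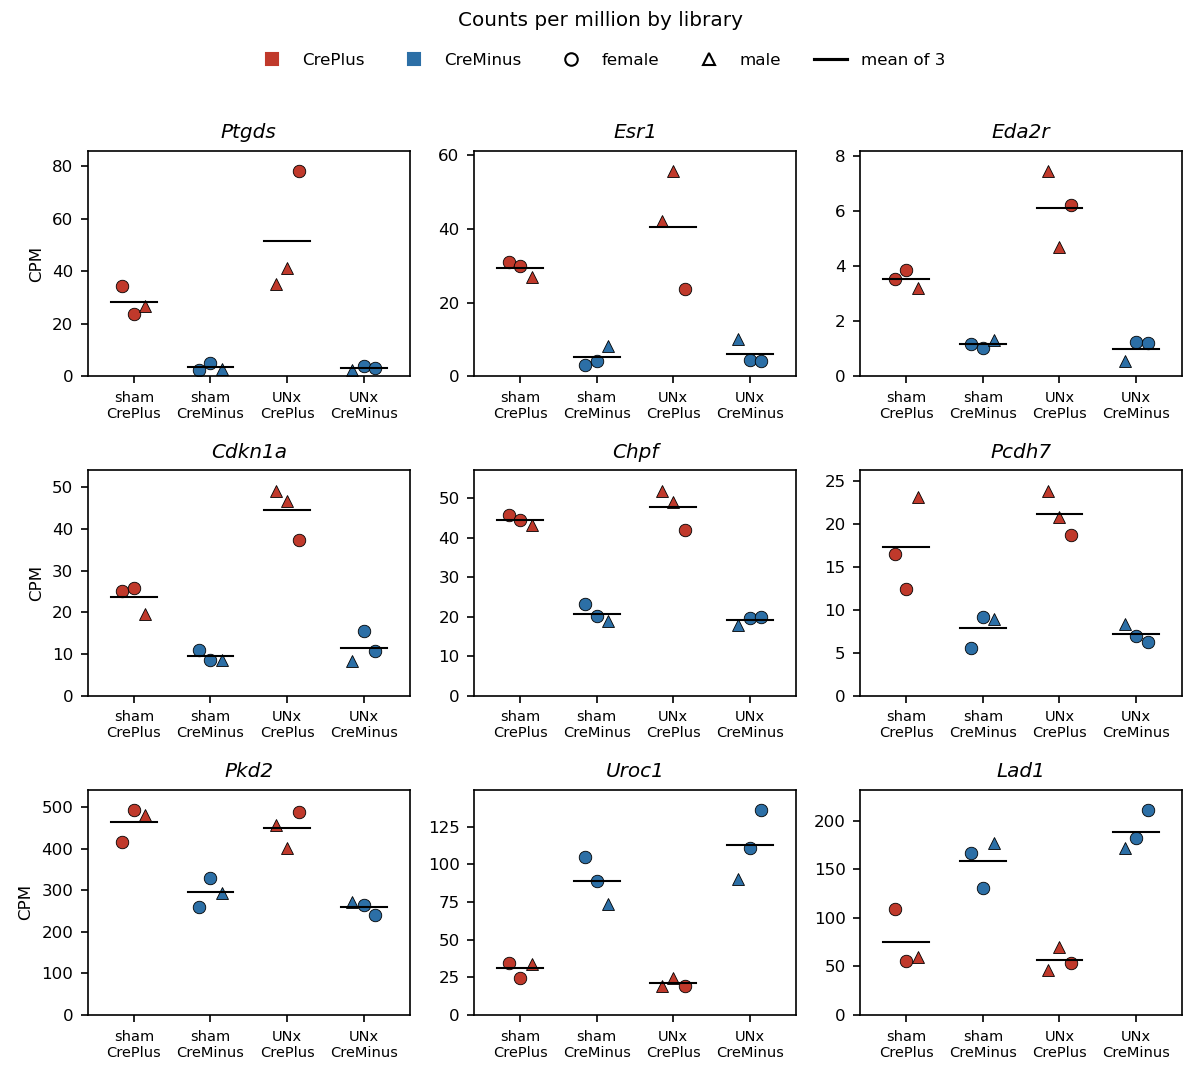
Expression of 9 called genes in each library, in CPM on linear axes that start at 0, for sham CrePlus, sham CreMinus, UNx CrePlus and UNx CreMinus kidneys. Circles are female and triangles male libraries by their counts, and the line is the mean of 3. In every panel the 6 CrePlus libraries are separate from the 6 CreMinus libraries, above them for Ptgds, Esr1, Eda2r, Cdkn1a, Chpf, Pcdh7 and Pkd2 and below them for Uroc1 and Lad1.

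Chpf had the smallest p-value of all genes. It encodes the chondroitin polymerizing factor, which with its partner enzymes extends the sugar chains of chondroitin sulfate. Chpf (chr1:75474569-75479471) was at 45.6, 44.5 and 43.2 CPM in sham CrePlus and 51.9, 49.1 and 42.0 CPM in UNx CrePlus libraries, against 23.3, 20.1 and 18.98 CPM in sham CreMinus and 18.0, 19.7 and 19.96 CPM in UNx CreMinus libraries. Its log2 fold change was 1.20 ± 0.08 (adjusted p = 3.69e-05), with 1.1 in sham and 1.31 in UNx kidneys. Of the 13 tested enzymes of chondroitin synthesis it was the only one that passed, although 11 were higher and the median was 0.20. Its close relative Chpf2 had 0.12 (adjusted p = 0.7), and the chain-extending synthase Chsy1 had 0.57 (adjusted p = 0.308), which passed with a sex term (adjusted p = 0.0318). Outside the list and the naming rule, and picked after its values were seen, Uxs1 makes UDP-xylose, the sugar donor that begins such chains. Uxs1 was at 54.0 to 71.9 CPM in CrePlus and 41.0 to 46.8 CPM in CreMinus libraries and rose by 0.44 ± 0.07 (adjusted p = 0.0146), and passed in 9 of the 12 fits that left out a library each.

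The lower gene with the smallest p-value was Uroc1 (chr6:90333239-90364551), which encodes urocanate hydratase of histidine breakdown. It was at 34.3, 24.6 and 34.0 CPM in sham CrePlus and 19.1, 24.6 and 19.5 CPM in UNx CrePlus libraries, against 105, 88.6 and 73.5 CPM in sham CreMinus and 90.5, 111 and 136 CPM in UNx CreMinus libraries. The arms of Uroc1 were far apart, and the log2 fold change was -1.97 ± 0.19 (adjusted p = 0.000646). It was -1.52 in sham and -2.42 in UNx kidneys. Of the other 3 tested genes of histidine use none passed. Hdc, which turns histidine into histamine, had 0.87 (adjusted p = 0.731), Amdhd1 0.25 (adjusted p = 0.73) and Ftcd -0.06 (adjusted p = 0.971).

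Further called genes are given by what their products are known to do, and no list or test stands behind this order. Pcdh7, a protocadherin, was at 12.4 to 23.9 CPM in CrePlus and 5.57 to 9.21 CPM in CreMinus libraries, with a log2 fold change of 1.34 ± 0.18 (adjusted p = 0.00574). Cdh3, the P-cadherin gene, rose by 0.94 ± 0.16 (adjusted p = 0.024), with sham CrePlus replicate 3 at 10.7 CPM inside the CreMinus range of 7.57 to 10.9 CPM. Cdh3 passed in 5 of the 12 fits that left out a library each. Cdc42bpa, a kinase that acts below the GTPase Cdc42 on the actin cytoskeleton, was at 117.1 to 129 CPM in CrePlus and 83.6 to 93.6 CPM in CreMinus libraries, and rose by 0.46 ± 0.05 (adjusted p = 0.00137). Abr, a regulator of small GTPases, was at 58.5 to 72.8 CPM in CrePlus and 79.5 to 87.7 CPM in CreMinus libraries, and fell by 0.35 on the log2 scale (adjusted p = 0.00817). Lad1, the ladinin gene of epithelial anchoring, fell by 1.41 on the log2 scale (adjusted p = 0.00817), to 46.3 to 110 CPM in CrePlus libraries, against 131 to 211 CPM in CreMinus libraries.

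The list of YAP pathway genes and targets covers the growth-control pathway that responds to cell shape and contact. Of its 13 tested genes 11 had values above 0 and 1 passed with edgeR and with limma voom, with a median of 0.13. Among all tested genes 49.2% had values above 0 and 0.441% were called higher with edgeR. The median was 0.01 in sham kidneys, with 7 members above 0, and 0.24 in UNx kidneys, with 12. Ptpn14, a phosphatase that restrains YAP, had 0.32 (adjusted p = 0.159) and was also called by DESeq2 and with a sex term (adjusted p = 0.0212). The called member was Ajuba, a scaffold protein that binds kinases of the pathway, with 40.6 to 49.0 CPM in CrePlus and 28.9 to 40.4 CPM in CreMinus libraries and a log2 fold change of 0.39 ± 0.07 (adjusted p = 0.0372). Ajuba passed in 3 of the 12 fits without a library, where its adjusted p reached 0.109. The classic targets Ctgf and Cyr61 had 0.09 (adjusted p = 0.925) and 0.27 (adjusted p = 0.783). Wnt9a, a Wnt ligand, was low at 2.44 to 3.27 CPM in CrePlus and 1.29 to 1.90 CPM in CreMinus libraries, and rose by 0.85 ± 0.14 (adjusted p = 0.0212). Dkk3, a secreted relative of Wnt inhibitors, was at 21.3 to 33.2 CPM in CrePlus and 13.5 to 21.0 CPM in CreMinus libraries, and rose by 0.77 ± 0.14 (adjusted p = 0.0397). Wnt9a passed in 9 of the 12 fits without a library and failed without UNx CrePlus replicate 1, UNx CrePlus replicate 2 or UNx CreMinus replicate 2 (adjusted p up to 0.062). Dkk3 passed in 1 of them (adjusted p up to 0.114).

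Txnip, which inhibits thioredoxin and limits glucose uptake, was at 296, 439 and 283 CPM in sham CrePlus and 350, 452 and 405 CPM in UNx CrePlus libraries, against 802, 698 and 505 CPM in sham CreMinus and 543, 652 and 619 CPM in UNx CreMinus libraries. It fell by 0.78 on the log2 scale (adjusted p = 0.0424) and passed in 2 of the 12 fits without a library (adjusted p up to 0.122). The annotation places Gm15441 across the 3901 bases of Txnip, and Gm15441 was also called lower, by 0.70 (adjusted p = 0.0397), so reads of the pair could not be told apart. Ptpla, which encodes an enzyme of very-long-chain fatty acid synthesis, was at 4.15 to 6.4 CPM in CrePlus and 8.41 to 11.6 CPM in CreMinus libraries and fell by 0.87 (adjusted p = 0.00817). Asns, the asparagine synthetase gene, rose by 0.95 ± 0.18 (adjusted p = 0.0397), although sham CrePlus replicate 3 was at 3.56 CPM beside 6.45 to 7.60 CPM in the other CrePlus libraries. Mgmt, which repairs alkylated guanine in DNA, rose by 0.78 ± 0.15 (adjusted p = 0.0387). Asns and Mgmt each passed in 1 of the 12 fits without a library, with adjusted p up to 0.114 and 0.102. Akr1b8, of the aldo-keto reductase family, rose by 1.04 ± 0.20 (adjusted p = 0.0434), with 2.50 to 4.58 CPM in CrePlus and 1.27 to 2.15 CPM in CreMinus libraries, and passed in 2 of the 12.

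Of the remaining genes with the smallest p-values, Cables2, named for its tie to cyclin-dependent kinases, was at 22.1 to 29.4 CPM in CrePlus and 12.1 to 16.4 CPM in CreMinus libraries and rose by 0.92 ± 0.09 (adjusted p = 0.000646). Tmem129, a membrane ubiquitin ligase, was at 38.0 to 42.0 CPM in CrePlus and 27.4 to 31.1 CPM in CreMinus libraries and rose by 0.42 ± 0.05 (adjusted p = 0.00251). Both passed in all 12 fits without a library. Bst1, an ectoenzyme that cleaves NAD, rose by 0.74 ± 0.12 (adjusted p = 0.0187), Slc26a10, of the anion exchanger family, by 1.03 ± 0.18 (adjusted p = 0.0268), and Lrtm2 by 0.81 ± 0.15 (adjusted p = 0.036). These 3 passed in 9, 4 and 2 of the 12 fits without a library. Slc26a10 shares 948 bases with B4galnt1, which had 0.52 (adjusted p = 0.23). Overlaps of 125 to 1355 bases with genes that did not pass were annotated for Scgb1c1, Zmat3, Cdc42bpa and Dusp15. Named genes that fell by over 1 on the log2 scale, beside Uroc1 and Lad1, were Scgb1c1, a secretoglobin, with -2.15 ± 0.39, Nsg2 with -2.03 ± 0.38, Pcolce2, an enhancer of procollagen processing, with -1.68 ± 0.29, Spns3 with -1.31 ± 0.22 and Dusp15, a phosphatase, with -1.16 ± 0.20. Their adjusted p-values were 0.0339, 0.0397, 0.0268, 0.0268 and 0.0311, and none was above 18.2 CPM in any library. These 5 passed in 3 to 6 of the 12 fits without a library.

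Smaller decreases were found in Reep6, Ninl, Klhdc8a, Slc16a11 and Nt5c2. Reep6, an endoplasmic reticulum protein, fell by 0.80 (adjusted p = 0.0323), with 32.5 to 49.5 CPM in CrePlus and 44.9 to 87.0 CPM in CreMinus libraries. Ninl, a centrosome protein, was at 23.7 to 42.0 CPM in CrePlus and 48.4 to 57.4 CPM in CreMinus libraries and fell by 0.70 (adjusted p = 0.0221). Klhdc8a fell by 0.65 (adjusted p = 0.0212), Slc16a11, of the monocarboxylate transporter family, by 0.55 (adjusted p = 0.0438) and Nt5c2, a nucleotidase, by 0.33 (adjusted p = 0.0371). The fits without a library kept the call in 10 of 12 for Klhdc8a, 8 of 12 for Ninl and 3 of 12 for Reep6, Slc16a11 and Nt5c2.

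The naming rule left out 43 called genes, and those that follow were picked after their values were seen. Pard6b, a cell polarity protein, was at 83.2 to 92.8 CPM in CrePlus and 63.7 to 72.0 CPM in CreMinus libraries and rose by 0.42 ± 0.05 (adjusted p = 0.00325). Ptpn13, Ptpn21 and Ptpdc1, which encode protein phosphatases, rose by 0.48 ± 0.08, 0.34 ± 0.06 and 0.66 ± 0.09 (adjusted p = 0.0197, 0.0239 and 0.00817). Frem2, a basement membrane protein of epithelia, rose by 0.63 ± 0.10 (adjusted p = 0.0161) and was at 24.7 to 42.7 CPM in CrePlus and 17.7 to 23.9 CPM in CreMinus libraries. Msn, which encodes moesin and links membranes to actin, rose by 0.50 ± 0.08 (adjusted p = 0.019). Rrm1, the large subunit of ribonucleotide reductase, was at 26.2 to 43.1 CPM in CrePlus and 17.3 to 25.1 CPM in CreMinus libraries and rose by 0.68 ± 0.13 (adjusted p = 0.0397). Vegfb, a growth factor of the VEGF family, rose by 0.54 ± 0.10 (adjusted p = 0.0399). Lect1, Dscaml1 and Pex5l had means under 1 CPM and large values of 2.48 ± 0.46, 2.03 ± 0.37 and -1.91 ± 0.32 (adjusted p = 0.0397, 0.0372 and 0.025). Pard6b and Ptpdc1 passed in all 12 fits without a library, Frem2 in 11, Ptpn13 in 10, Msn in 8, Pex5l in 7 and Ptpn21 in 5, whereas Dscaml1 passed in 3 and Rrm1, Vegfb and Lect1 in 2 each.

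Genes of the cell cycle and of tubular injury were mostly higher in CrePlus kidneys, but few passed. Of 25 cell cycle genes 24 were higher, 16 had an unadjusted p under 0.05 and 0 passed with edgeR, while DESeq2 called 1 and limma voom 0. Their median was 0.84 beside -0.0026 over all genes, of which 12.7% had an unadjusted p under 0.05. Their summed level was 209, 190 and 239.5 CPM in sham CrePlus and 446, 489 and 199 CPM in UNx CrePlus libraries, against 183, 161 and 178 CPM in sham CreMinus and 240.3, 270.2 and 155 CPM in UNx CreMinus libraries. UNx CrePlus replicates 1 and 2, both male, were far above the rest, and in female libraries alone the median was 0.07. Ccne1, which encodes cyclin E1, had 1.29 (adjusted p = 0.167) and Rrm2 0.97 (adjusted p = 0.18). Of 24 tubular injury genes 23 were higher, with a median of 0.90, and the 1 that passed was Cdkn1a, while DESeq2 called 7 and limma voom 2. Over all 14970 tested genes DESeq2 called 445 and limma voom 128, beside 85 with edgeR. The median of the injury genes was 0.52 in sham kidneys, with 19 members higher, and 0.89 in UNx kidneys, with 22. Summed levels overlapped, with 1346 to 4991 CPM in CrePlus and 1546 to 4206 CPM in CreMinus libraries. Sham CrePlus replicate 3 was the lowest library. The fibrinogen gene Fgb had 2.48 (adjusted p = 0.0528), with 0.445 to 3.92 CPM in CrePlus and 0.141 to 0.782 CPM in CreMinus libraries, and passed with a sex term (adjusted p = 0.0189). Lcn2, the NGAL gene, had 2.57 (adjusted p = 0.188) and Havcr1, the KIM-1 gene, 1.46 (adjusted p = 0.582), and for both genes the arms overlapped.

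**Figure D3:**
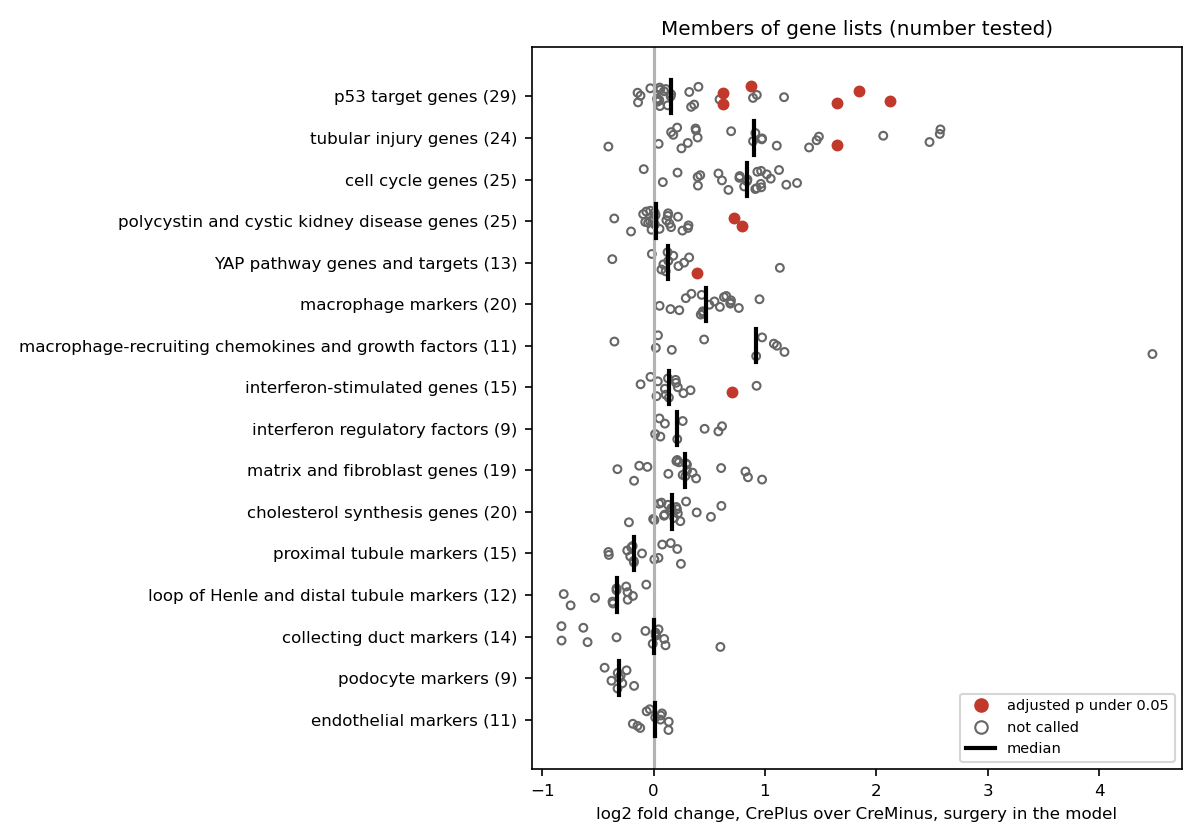
The log2 fold change of CrePlus over CreMinus for each tested member of 16 gene lists, with the number tested in brackets, filled where the adjusted p was under 0.05. Black bars are medians, which run from -0.33 for the markers of Henle's loop and distal tubule to 0.92 for macrophage-recruiting chemokines and growth factors, and filled points are most frequent among p53 target genes (6 of 29).

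Macrophage and interferon genes were examined because the series title concerns IRF5 of kidney macrophages. All 20 tested macrophage markers had values above 0, with a median of 0.47, and 0 passed with edgeR, DESeq2 or limma voom, against 2 at an unadjusted p under 0.05. Over all tested genes 12.7% had an unadjusted p under 0.05. The median was 0.03 in sham and 1.16 in UNx kidneys. The summed level of the markers was 655, 331 and 383 CPM in sham CrePlus and 652, 788 and 463 CPM in UNx CrePlus libraries, against 368, 296 and 681 CPM in sham CreMinus and 314, 372 and 331 CPM in UNx CreMinus libraries. Sham CrePlus replicate 1 and sham CreMinus replicate 3 were thus level with UNx CrePlus replicate 1. In whole kidney, more macrophages and more RNA per macrophage cannot be told apart. Of the 11 tested macrophage-recruiting chemokines and growth factors 10 had values above 0, with a median of 0.92, which was 0.22 in sham and 1.24 in UNx kidneys. None passed with edgeR or limma voom and 3 passed with DESeq2, which called 445 of all 14970 tested genes. In edgeR's fit 6 were higher and 1 lower at an unadjusted p under 0.05. The nearest were Cxcl16 with 0.45 ± 0.10 (adjusted p = 0.0705) and Cxcl10 with 1.08 ± 0.27 (adjusted p = 0.11), and both passed with a sex term (adjusted p = 0.0401 and 0.0434). With terms for both sex and depth in edgeR neither passed (adjusted p = 0.234 and 0.254). Of the 15 interferon-stimulated genes 13 had values above 0, with a median of 0.14, and 1 passed. Their median was -0.11 in sham kidneys, with 5 members above 0, and 0.44 in UNx kidneys, with 15. This difference was not tested for the list, and 0 single genes passed the test of the difference between surgeries. The called member was Ifit2, an antiviral RNA-binding protein, with 18.6, 18.7 and 17.0 CPM in sham CrePlus and 27.5, 21.98 and 23.6 CPM in UNx CrePlus libraries, against 12.5, 14.8 and 11.3 CPM in sham CreMinus and 12.7, 14.4 and 11.8 CPM in UNx CreMinus libraries. Its log2 fold change was 0.71 ± 0.11 (adjusted p = 0.0135), whereas its relatives Ifit1 and Ifit3 had 0.27 (adjusted p = 0.565) and 0.33 (adjusted p = 0.363). Ifit2 did not pass with terms for both sex and depth in edgeR (adjusted p = 0.053). Of the 9 interferon regulatory factors 0 passed with edgeR, DESeq2 or limma voom, against 1 at an unadjusted p under 0.05, and their median was 0.21, with 0.03 in sham and 0.43 in UNx kidneys.

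Markers of nephron segments and of other cell types gave 0 calls with edgeR, whereas DESeq2 called Atp6v1g3 and Alas2 and limma voom called Alas2. All 12 markers of Henle's loop and the distal tubule had values below 0, with a median of -0.33, and 4 had an unadjusted p under 0.05. Their summed level was 8491 to 14328 CPM in CrePlus and 12888 to 15914 CPM in CreMinus libraries, so that the ranges overlapped, and it was lowest in the male CrePlus libraries. Calb1, the calbindin gene of the distal convoluted tubule, had -0.75 (adjusted p = 0.273). All 9 podocyte markers were below 0 as well, with a median of -0.31. The medians were -0.18 for 15 proximal tubule, 0.00 for 14 collecting duct and 0.01 for 11 endothelial markers. The proximal tubule median was 0.04 in sham and -0.31 in UNx kidneys, and the endothelial median was -0.17 in sham and 0.11 in UNx kidneys. Of the collecting duct markers 7 were higher and 7 lower, with 1 higher and 4 lower at an unadjusted p under 0.05. The 2 of smallest p were the proton pump subunits of intercalated cells, Atp6v1g3 and Atp6v0d2. They had -0.83 (adjusted p = 0.193) and -0.59 (adjusted p = 0.242), and passed with a sex term (adjusted p = 0.0193 and 0.0124). With terms for both sex and depth in edgeR neither passed (adjusted p = 0.0836 and 0.057). Matrix and fibroblast genes had a median of 0.29, with 2 of 19 at an unadjusted p under 0.05, beside 12.7% of all tested genes. Their median was -0.02 in sham kidneys, with 9 members above 0, and 0.51 in UNx kidneys, with 18. Cholesterol synthesis genes had a median of 0.16, with 4 of 20 at an unadjusted p under 0.05. Of the erythroid markers the 4 globin genes were at 0 counts in every library, and Alas2, which encodes the red-cell enzyme that begins haem synthesis, had -1.50 ± 0.32 (adjusted p = 0.0649) and passed with a sex term (adjusted p = 0.0174). Alas2 did not pass with terms for both sex and depth in edgeR (adjusted p = 0.0698).

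Sex and depth moved with the Cre groups and were entered as further terms. CrePlus kidneys were male in 3 of 6 libraries and CreMinus kidneys in 2 of 6. With sex in the model 301 genes passed (2.01%), 206 higher (1.38%) and 95 lower (0.635%), and these included all 85. With a term for the 4 deep libraries 22 passed, of which 21 were among the 85, and with both terms 66 passed, of which 42 were among the 85. Among the genes described above, Chpf, Zmat3, Ptgds, Glis2, Cables2, Uroc1, Cdc42bpa, Cdkn1a, Tmem129, Pkd2, Esr1, Eda2r, Psrc1 and Slc26a10 passed with the depth term alone. Within female libraries all 85 genes kept their sign and 22 genes passed, of which 14 were among the 85. Within male libraries all 85 kept their sign as well, while 0 genes passed with edgeR, against 1251 at an unadjusted p under 0.05. The 85 genes were selected on the female and male libraries together, so the kept signs are a description. Ptgds had 3.61 in female and 3.64 in male libraries, Zmat3 0.85 and 0.89, and Uroc1 -2.08 and -1.67. The share of sex or depth in the weaker calls was not tested further.

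**Figure D4:**
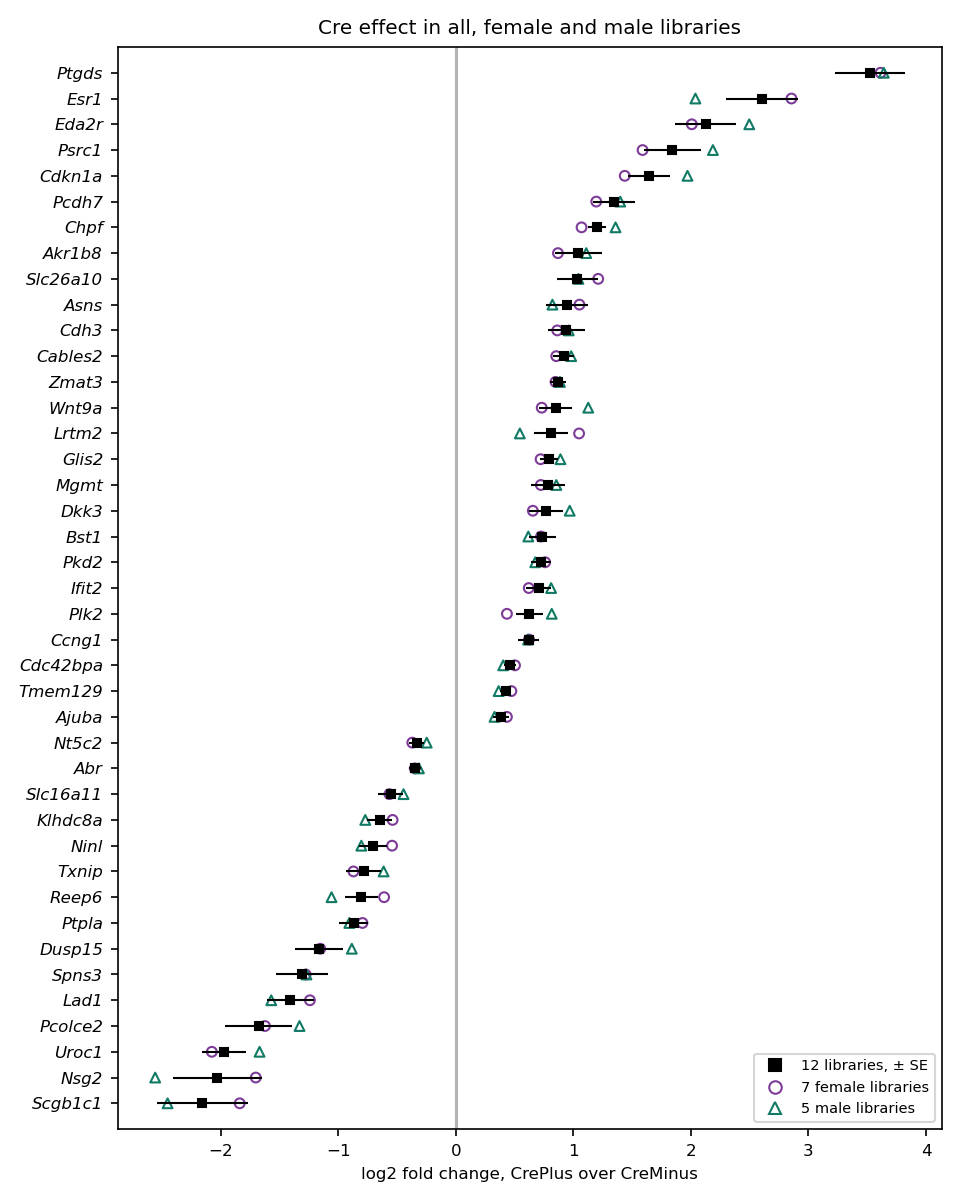
The log2 fold change of CrePlus over CreMinus of 41 called genes, from all 12 libraries (squares, with bars of 1 SE), from the 7 female libraries (circles) and from the 5 male libraries (triangles). The 3 estimates have the same sign for every gene, from Ptgds with 3.52 in all libraries to Scgb1c1 with -2.15. The genes were selected on all 12 libraries, so the shared sign is a description.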

How the data were processed

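Per the labels' protocols, column-purified and DNase-treated kidney RNA went into SMART-Seq v4 libraries. This kit does not mark strand, so reads of overlapping genes could not be separated. The authors deposited whole-number read counts per gene. The submitters' processing notes name mm10 and GRCm38 and list cutadapt 1.11, FastQC 0.11.5, DESeq2 and HTSeq. The aligner, the annotation and the setting for strand: not given in the sources used here. Of 24067 deposited rows, 5 repeated symbols held identical counts and were used once. Authors' fold changes and the other count tables were not used here.

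The analysis ran in R 4.3.3 and edgeR 4.0.16, with filterByExpr, TMM, glmQLFit and glmQLFTest and additive terms for surgery and Cre. A gene was called where its adjusted p (Benjamini-Hochberg) was under 0.05. The SE is the absolute log2 fold change over the root of F, and CPM values use TMM-scaled totals. The Xist and Y-linked values used to call sex are the exception and use plain library totals. The Cre effect per surgery and its difference came from a model of 4 group means. Gene positions came from a RefSeq table of GRCm38.p6, matched by identifier for 14817 tested genes, and promoters from RefSeq. Precision was limited by depth of 18914300 to 42785476 counts per library and by 6 libraries per arm. PCR duplicates could not be told from separate molecules.

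The rule named Pkd1, Irf5, up to 20 called genes of largest change each way (mean 1 CPM or more, no systematic symbol), the 10 of smallest p, every called list member and, in lists without one, the 2 members of smallest p. Some genes that the rule named are not reported here. Of 415 entries in 31 lists 412 were matched and 384 tested, and lists are described without a test. The members, lists and tests were chosen with earlier results of these data known. Replicates were numbered in the order of the labels and pair no samples. For sham CrePlus replicate 1 the title holds a group name, not an animal number. Alternatives were other models, terms for sex and depth, thinning, DESeq2 1.42.0, limma 3.58.1 voom with quality weights, robust dispersion, other scalings and filters, subsets, and leaving out each library.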

Additional observations from a re-analysis of the deposited data

Results flagged for a closer look

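Genes given by the naming rule were searched, within each arm of 6 libraries and on log2 CPM, for a highest or lowest library set apart from the others by more than Dixon's critical share of the arm's range, and the ratio given is that share. This flagged 9 of 168 combinations of gene and arm, and chance flags about 1 in 20. Among CrePlus libraries, Pkd1 was highest in sham CrePlus replicate 1, at 64.1 CPM beside 39.6 to 46.1 CPM in the others (ratio 0.687), and without that library its log2 fold change was -0.44 (adjusted p = 0.151 in edgeR's fit). Asns was lowest in sham CrePlus replicate 3 at 3.56 CPM (ratio 0.783). Cables2 was lowest in sham CrePlus replicate 1 at 22.1 CPM (0.644). Cftr, the chloride channel gene, was lowest in sham CrePlus replicate 2 at 5.98 CPM beside 11.5 to 14.05 CPM (0.762), and so was Wnt9a at 2.44 CPM (0.692). Adcy5, an adenylate cyclase, was lowest in UNx CrePlus replicate 2 at 3.59 CPM (0.657). Among CreMinus libraries, Adcy5 was lowest in UNx CreMinus replicate 1 at 5.22 CPM (0.646), Eda2r in the same library at 0.540 CPM beside 1.03 to 1.31 CPM (0.732) and Cxcl16 in sham CreMinus replicate 1 at 41.1 CPM (0.634).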

How the results depend on the processing

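No paired analysis was possible because the labels give no replicate numbers. Every called gene that could be tested kept its sign under every alternative. These genes were selected on the same libraries, so the kept signs are a description. The 85 calls (66 higher, 19 lower) became 301 (206, 95) with a sex term, 22 (21, 1) with a depth term, 445 (299, 146) with DESeq2 and 128 with 38 lower in voom. In sham libraries alone 0 passed (0 higher, 0 lower; 520 unadjusted), in UNx alone 9 (5, 4), in female alone 22 (16, 6) and in male alone 0 (0, 0; 1251 unadjusted). Leaving out a library gave 34 to 107 calls, 28 to 84 higher and 5 to 23 lower. The count moved by over 1.5 times when any of 7 libraries was left out: UNx CrePlus replicate 1 gave 35 and replicate 2 gave 39, sham CrePlus replicate 2 gave 55, UNx CreMinus replicate 3 gave 34 and replicate 2 gave 35, and sham CreMinus replicate 1 gave 41 and replicate 2 gave 54, and 27 genes passed without any 1 library. The remaining model, scaling, filter and thinning alternatives gave 66 to 87 calls, and the surgery difference gave 0 wherever it was fitted. Genes that had not passed and reversed sign were Cfd (voom -1.50, leave-one-out -2.06 to 1.72, female -1.42), Ddx3y (sex term -0.021, depth term -0.18, leave-one-out -0.81 to 2.47), Des (male 0.28), Fabp4 (female -0.045), Prlr (depth term 0.19), Upk1b (female 0.60) and Xist (depth term 0.63). Causes were not tested. Of 806 list medians under alternatives, 36 moved beyond the spread between libraries, among them the cell cycle genes in female libraries. Depth limits calls of genes near 1 CPM.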

Other observations

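Called genes were spread over the genome. Of the 85, those with a known position fell on every chromosome but 4 and Y, with 0 of 939 tested genes on chromosome 4, 8 of 710 on chromosome 3 (1.13%) and 10 each on chromosomes 2 and 11. Pairs of called genes with starts within 1000000 bases of each other were Gm15441 with Txnip, Anpep with 2610034B18Rik, 103556 bases apart, Dusp15 with Pofut1, 300537 bases apart, and Zmat3 with Pex5l, 613134 bases apart. The last pair, like Dusp15 and Pofut1, moved in opposite directions, with 0.87 for Zmat3 and -1.91 for Pex5l.

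The lists named here held 0 genes called with edgeR or limma voom, and DESeq2 called Clca1. Of 15 cyclic AMP genes, the pathway that drives fluid secretion into cysts, 8 were higher, with a median of 0.01 and 2 at an unadjusted p under 0.05. Over all tested genes 12.7% had an unadjusted p under 0.05. Adcy5 had -0.46 (adjusted p = 0.286 in edgeR's fit) and Pde1a, a phosphodiesterase, 0.25 (adjusted p = 0.355). Of 5 chloride secretion genes 4 were higher, with a median of 0.37 and 1 at an unadjusted p under 0.05. Clca1 had 1.46 (adjusted p = 0.151), with 0.43 in sham and 2.42 in UNx kidneys, and Cftr 0.45 (adjusted p = 0.432). Fatty acid oxidation genes had a median of -0.01 over 14 members. Lymphocyte markers had a median of 0.07 over 10 members, which was -0.59 in sham kidneys, with 1 member above 0, and 1.04 in UNx kidneys, with 7. Smooth muscle markers had a median of -0.21 over 5 members, which was -0.75 in sham kidneys, with 0 above 0, and 0.36 in UNx kidneys, with 3. Of adrenal and urothelium markers 2 each could be tested, with medians of -0.74 and -0.01. The 2 tested adipocyte markers had a median of 0.79, which became -0.93 without sham CrePlus replicate 3, where Cfd was at 8.6 CPM beside at most 0.828 CPM in any other library.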
